A study of Caenorhabditis elegans with 40 samples.

Results

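Ribosome profiling (Ribo-seq) of Caenorhabditis elegans heterozygous for a null allele of rps-10 or rps-23 was compared with that of wild-type animals carrying the same balancer chromosome. The 12 libraries were those whose labels name these genotypes, of 20 labelled Ribo-seq samples and 40 samples in all. The mutants were rps-10(0)/tmC20 and rps-23(0)/tmC5, written rps-10(0)/+ and rps-23(0)/+, and were whole L4 larvae of 4 days. The controls were wild-type/tmC20 and wild-type/tmC5, taken as L4 larvae at day 3 (stage-matched) and as pregravid adults at day 4 (time-matched). Every group had 2 libraries, so 4 mutant libraries stood against 8 control libraries. Mutants and controls alike were heterozygous for the balancer, a rearranged chromosome that keeps a linked null allele from being lost by recombination, and all were grown at 16°C on E. coli OP50. Each library came from a frozen pellet of whole animals. The study's methods call the replicates independent and biological, and the p values measure the spread between these libraries.

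The cytosolic ribosome has a small subunit, which holds the mRNA and the decoding site, and a large subunit, which forms the peptide bond. RPS-10 and RPS-23 are proteins of the small subunit, and RPS-23 lies close to the decoding center. In Ribo-seq, the stretches of mRNA covered by a ribosome are protected from RNase, sequenced and counted per gene, so a count reads how many ribosomes sat on the mRNAs of that gene. Such a count moves both with the amount of mRNA and with how densely ribosomes load on it. In whole animals, fewer cells of a type and less RNA per cell cannot be told apart.

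The depth sets what can be seen. The deposited counts per library are far below the number of mapped reads at which the study's methods dropped replicate 3 as too shallow. Each group used here has a library headed R3, and whether this is the dropped replicate cannot be told from the files. Whether the table holds all counts of each library cannot be told either. Every depth limit given here is therefore that of the deposited table. The mutant libraries held 2882 and 3523 counts for rps-10(0)/+ and 1148 and 2542 for rps-23(0)/+, against 1081 to 4272 in the 8 control libraries. All 12 together held 29802 counts on 6754 genes, of which 2878 (42.6%) had a single count in all 12. Within a library, a gene with no count could still hold a share of up to 0.0702% in the deepest and up to 0.278% in the shallowest (3 counts of the library's total, for counting error only). Counts were therefore read for the most abundant genes and for 24 gene classes that took up 31.8% of all counts. Footprints on body wall muscle markers were found in all 12 libraries (294 counts), those on germline markers numbered 71 and on intestinal markers 36. The neuronal markers unc-119 and rab-3, the pharyngeal factor pha-4 and the cuticle collagen dpy-7 were at 0, so tissues with few footprints could not be followed.

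The mutated genes themselves could not be checked at this depth. In the order used for every set of values below, library headed R1 and then R3, rps-10 (WBGene00004479, chromosome I from 4583913 to 4584505 of WBcel235) had 0 and 3 counts in rps-10(0)/+, against 0 and 3 in day 3 and 0 and 6 in day 4 tmC20 controls. The gene rps-23 (WBGene00004492, chromosome IV from 12390298 to 12391053) had 1 and 2 counts in rps-23(0)/+, against 1 and 6 in day 3 and 2 and 1 in day 4 tmC5 controls. The pooled ratios had exact 95% intervals of 0.0932 to 2.14 for rps-10 and 0.136 to 2.98 for rps-23, and both intervals hold 1 and 0.5, so a loss of 50% of the footprints was not detectable at this depth. These intervals, like the others given for ratios, cover counting error only. Ratios over both mutants sum the counts of both balancers and do not have balancer as covariate.

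Over both mutants, no abundant gene passed the threshold against the controls of both ages. Of 25 genes with enough counts to be tested, 0 (0%) had an adjusted p below 0.05 in edgeR's quasi-likelihood test with balancer as covariate, and 1 had an unadjusted p below 0.05. DESeq2 gave 0 as well. The 25 genes had standard errors between 0.29 and 1.00 on the log2 scale, with a median of 0.59. The gene with the smallest error was hsp-1, the constitutive cytosolic Hsp70 chaperone, at 0.08 (SE 0.29). It had 16 and 25 counts in rps-10(0)/+ and 7 and 20 in rps-23(0)/+, against 9 to 28 in the controls. The elongation factor eef-2, which moves the ribosome along the mRNA, had 0.03 (SE 0.34). Its share of the library ran from 0.348% to 0.747% in the mutants and from 0.358% to 1.11% in the controls, so the groups overlapped. The gene with the lowest unadjusted p was pygl-1, the glycogen phosphorylase, at -1.82 (SE 0.76, adjusted p = 0.651). It had 1 and 4 counts in rps-10(0)/+ and 0 and 0 in rps-23(0)/+, against 1 to 7 in every control library.

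The elongation factor gene eef-1A.1 fell in rps-23(0)/+. It encodes eEF1A, the GTPase that brings aminoacyl-tRNA to the ribosome, and was the most counted gene of the 12 libraries together (287 counts, WBGene00001168, chromosome III from 6970026 to 6971712). In rps-23(0)/+ it had 1 count of 1148 and 7 of 2542 (0.0871% and 0.275% of the library). In the tmC5 controls it had 13 and 32 counts at day 3 (0.712% and 0.749%) and 26 and 15 at day 4 (1.35% and 1.08%). Both mutant libraries lay below all 4 controls of their balancer, and also below the 4 tmC20 controls. The log2 fold change was -2.03 (SE 0.42), and with the Benjamini-Hochberg adjustment over 25 genes the p was 0.00362 in edgeR's quasi-likelihood test. It was the only gene called in rps-23(0)/+ (4.00% of those tested). Pooled over libraries, the share was 0.238 times that of the tmC5 controls, with a counting interval of 0.0994 to 0.489. The mutant value rests on 8 footprints. Without the rps-23(0)/+ library headed R1 the log2 fold change was -1.59 (edgeR adjusted p = 0.0489), and without the one headed R3 it was -3.25 (edgeR adjusted p = 0.00917). With no filter on low counts and so 6754 genes in the adjustment, the log2 fold change was -2.33 and the edgeR adjusted p was 0.960.

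The same gene did not fall in rps-10(0)/+. There it had 43 and 39 counts (1.49% and 1.11% of the library), against 26 and 35 in day 3 and 14 and 36 in day 4 tmC20 controls (0.808% to 1.30%). The mutant libraries overlapped the controls, with a log2 fold change of 0.44 (SE 0.31, edgeR adjusted p = 0.978). The difference between the mutants, rps-10(0)/+ change minus rps-23(0)/+ change, was 2.47 (SE 0.52, edgeR adjusted p = 0.00463). This was the only 1 of 25 genes (4.00%) for which the changes of the mutants were called different. The standard errors of this difference ran from 0.52 to 2.17 on the log2 scale, with a median of 1.23. Only 4 of the 25 genes had an error of at most 1. Without the rps-10(0)/+ library headed R1 the difference was 2.08 and its edgeR adjusted p was 0.0551. In rps-10(0)/+ against its own controls, 0 of 25 genes (0%) passed, and 0 had an unadjusted p below 0.05. DESeq2 also called 0, with 1 at an unadjusted p below 0.05.

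**Figure D1:**
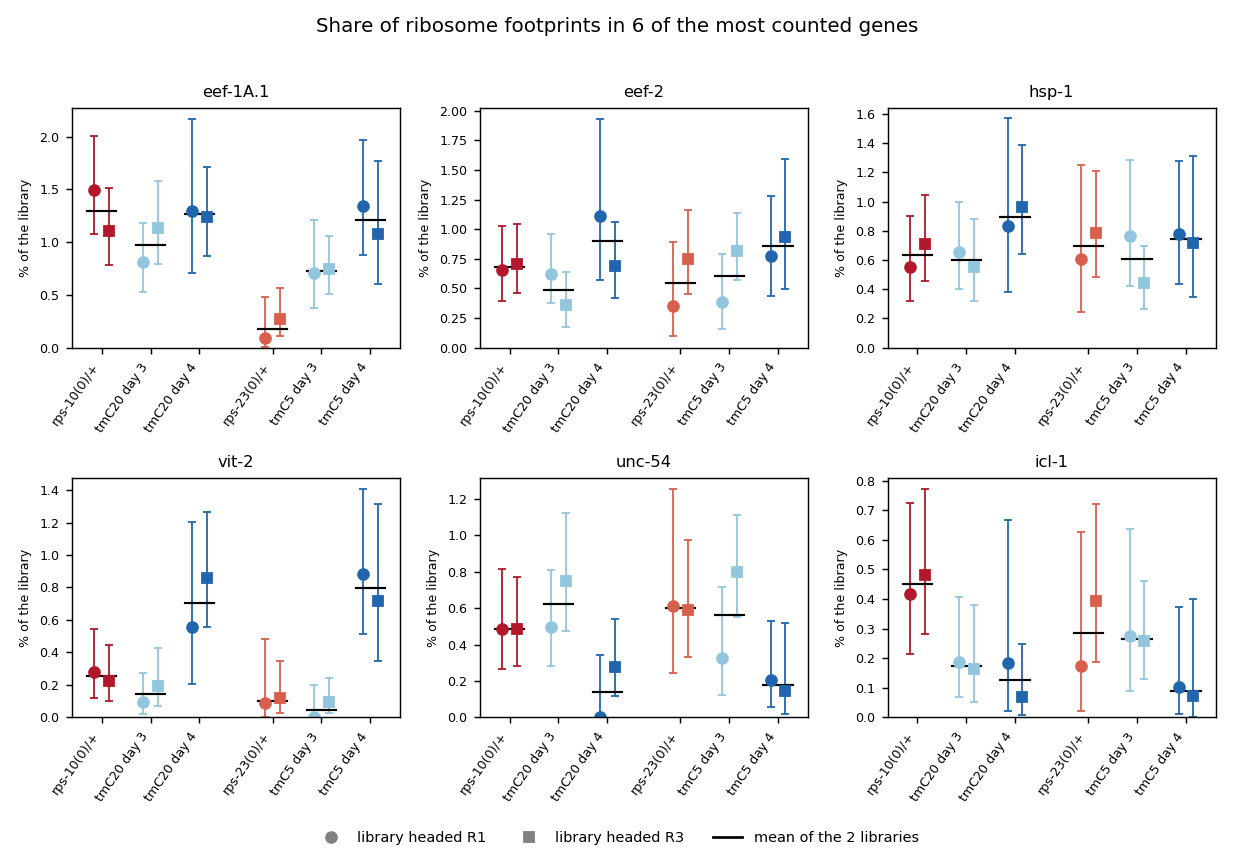
Share of each library's Ribo-seq counts (%, vertical axis) in 6 of the most counted genes, with rps-10(0)/+ and rps-23(0)/+ each left of their controls of day 3 and day 4. Points are libraries (circles headed R1, squares R3), bars are exact 95% counting intervals and black lines the means of the 2 libraries. The eef-1A.1 share was 0.0871% and 0.275% in rps-23(0)/+ and at or above 0.712% in every other library.

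The worm has a near copy of this gene, eef-1A.2 on chromosome X (from 7823654 to 7825769), and a footprint of 26 to 34 nucleotides can fall where the copies cannot be told apart. From the RefSeq annotation of WBcel235, both coding sequences are 1392 bases long and 94.0% identical, with 84 bases that differ. Of 1363 windows of 30 bases, 190 (13.9%) hold no difference. The first 30 bases of the coding sequences are shown because no other in-frame stretch of that length within an exon holds more differences. They lie on the minus strand of chrIII:6971651-6971680 in eef-1A.1 and on the plus strand of chrX:7823677-7823706 in eef-1A.2, and capitals mark the bases that differ.
eef-1A.1: atgggaaaAgaaaaggtTcatatCaacatC
eef-1A.2: atgggaaaGgaaaaggtCcatatTaacatT
How the counting treated footprints that match both genes is not given in the sources used here, so the split between them is uncertain. The copy eef-1A.2 had 1 and 1 counts in rps-23(0)/+, against 6 and 3 in day 3 and 1 and 0 in day 4 tmC5 controls. In rps-10(0)/+ it had 5 and 4 counts, against 6 and 2 in day 3 and 1 and 0 in day 4 tmC20 controls. In no library did eef-1A.2 have more than 6 counts.

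The remaining elongation factors had shares within or near those of the controls. Without eef-1A.1, the class of 6 genes held 0.610% and 0.944% of the counts in rps-23(0)/+, against 0.712% and 1.12% in day 3 and 1.04% and 1.15% in day 4 tmC5 controls. The whole class held 0.697% and 1.22% in rps-23(0)/+, below the 1.42% to 2.38% of the 4 tmC5 controls, and 2.57% and 1.96% in rps-10(0)/+, against 1.76% to 2.59% in tmC20 controls. Over both mutants its share was 0.424 percentage points lower, with an exact permutation p of 0.196 (adjusted over the 24 classes, 0.469).

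The RNA of eef-1A.1 did not show the fall. RNA-seq libraries of the same genotypes and days, with 1017787 to 2384186 counts each, gave 12990 and 12988 CPM (counts per 1e6 counts of the library) in rps-23(0)/+, against 10903 to 11932 in the 4 tmC5 controls. The labels of the day 4 RNA controls name pregravid adults for replicate 1 and L4 larvae for replicate 2. Translation efficiency (TE), the Ribo-seq change less the RNA change, was -2.49 on the log2 scale for eef-1A.1 in rps-23(0)/+ (SE 0.60), and the edgeR adjusted p over 127 genes was 0.0734, so it missed the threshold. In rps-10(0)/+ the TE change was 0.06 (SE 0.55, edgeR adjusted p = 0.992). Over both mutants, 0 of 127 genes (0%) had a change in TE by edgeR and 2 had an unadjusted p below 0.05. DESeq2 called 0, with 3 at an unadjusted p below 0.05. The lowest of these p values was that of rla-0, which encodes the stalk base protein P0 of the large subunit (log2 TE change -1.25, SE 0.41, edgeR adjusted p = 0.781).

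**Figure D2:**
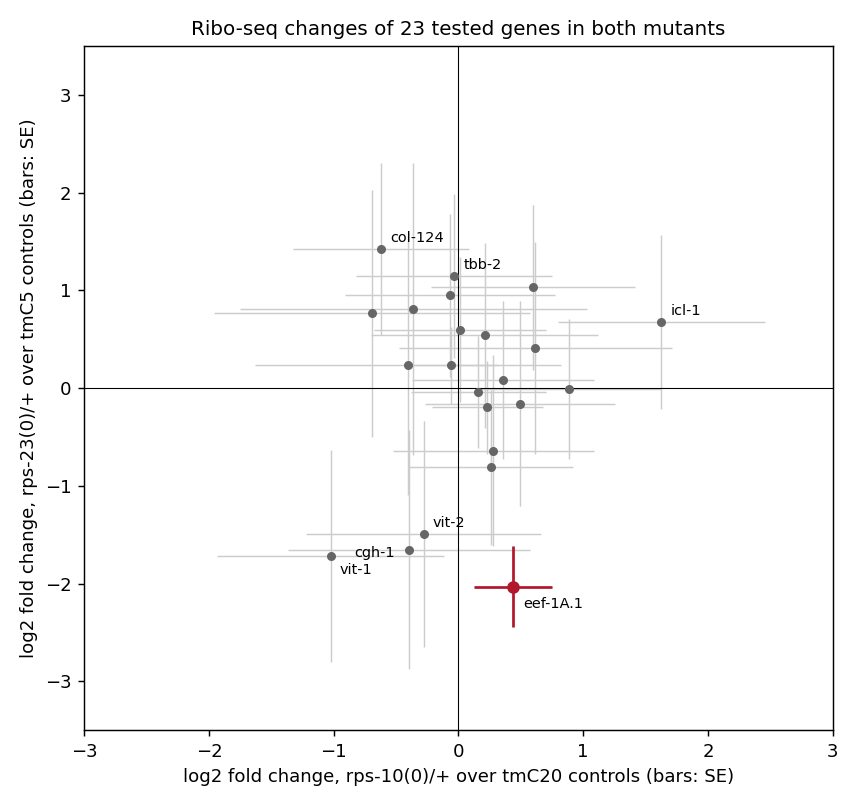
Log2 fold changes of 23 tested genes in rps-10(0)/+ over tmC20 controls (horizontal) and in rps-23(0)/+ over tmC5 controls (vertical), with standard errors as bars. The 2 tested genes with no count in rps-23(0)/+ (pygl-1 and col-140) are not drawn. The gene eef-1A.1, in red, lies at 0.44 and -2.03.

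What the mutants differ from depends on the age of the controls. With day 3 controls only, edgeR called 0 of 25 genes (0%), and 1 gene had p below 0.05 before adjustment. Against day 4 controls alone, 9 of 25 (36.0%) were called, 4 higher and 5 lower in the mutants, and the 9 all had an unadjusted p below 0.05. The same 4 mutant libraries enter both comparisons. The abundance filter keeps a gene that is high in a single group of libraries. The gene vit-2 passed it only through day 4 controls and icl-1 only through mutant libraries. The 36.0% and the directions of the called genes therefore rest in part on the filter. Split by mutant, 1 gene was called in rps-10(0)/+ (4.00%) and 8 in rps-23(0)/+ (32.0%) against day 4 controls.

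The 5 genes that fell against day 4 adults were vit-1, vit-2, cgh-1, col-140 and pygl-1. The yolk protein gene vit-2 (chromosome X from 5101042 to 5106169) had 8 and 8 counts in rps-10(0)/+ and 1 and 3 in rps-23(0)/+. It had 3 and 6 in day 3 and 6 and 25 in day 4 tmC20 controls, and 0 and 4 in day 3 and 17 and 10 in day 4 tmC5 controls. As a share of the library, all 4 mutants (0.0871% to 0.278%) lay below all 4 day 4 controls (0.555% to 0.880%) and overlapped the day 3 controls (0% to 0.195%). Its log2 fold change was -1.79 against day 4 controls (SE 0.45, edgeR adjusted p = 0.0183) and 0.56 against day 3 controls (SE 0.57, edgeR adjusted p = 0.836). Its relative vit-1 had -2.24 against day 4 controls (SE 0.50, edgeR adjusted p = 0.0146). The DEAD-box RNA helicase gene cgh-1, whose product acts in germ granules and P bodies, had -1.89 (SE 0.54, edgeR adjusted p = 0.0303). The cuticle collagen gene col-140 had -1.87 (SE 0.60, edgeR adjusted p = 0.0344), and pygl-1 had -2.39 (SE 0.75, edgeR adjusted p = 0.0344). Of these 5, pygl-1 alone was lower against day 3 controls by more than 1 on the log2 scale (-1.34, SE 0.65, edgeR adjusted p = 0.836).

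The 4 genes that rose against day 4 adults were dpy-13, icl-1, unc-54 and unc-15. The collagen gene dpy-13 had 4 and 6 counts in rps-10(0)/+ and 2 and 6 in rps-23(0)/+, against 13 and 7 in day 3 tmC20, 8 and 2 in day 3 tmC5 and 0 in each day 4 control. Its share was at least 4.35-fold higher in the mutants than in the day 4 controls, with these set at 3 counts over the group (edgeR adjusted p = 0.00449). Against day 3 controls the log2 fold change was -0.81 (SE 0.62, edgeR adjusted p = 0.836). The gene icl-1 encodes the isocitrate lyase and malate synthase of the glyoxylate cycle. It had 12 and 17 counts in rps-10(0)/+ and 2 and 10 in rps-23(0)/+. The tmC20 controls had 6 and 5 at day 3 and 2 and 2 at day 4, and the tmC5 controls had 5 and 11 at day 3 and 2 and 1 at day 4. Its log2 fold change was 2.13 against day 4 controls (SE 0.50, edgeR adjusted p = 0.0146) and 0.54 against day 3 controls (SE 0.49, edgeR adjusted p = 0.836). The muscle myosin heavy chain gene unc-54 had 14 and 17 counts in rps-10(0)/+ and 7 and 15 in rps-23(0)/+. The tmC20 controls had 16 and 23 at day 3 and 0 and 8 at day 4, and the tmC5 controls had 6 and 34 at day 3 and 4 and 2 at day 4. Each mutant library thus had a larger share than each day 4 control. How many of all genes were separate from day 4 controls in this way, as vit-2 was on the lower side, was not counted. The log2 fold change of unc-54 was 1.76 against day 4 controls (SE 0.56, edgeR adjusted p = 0.0344). The paramyosin gene unc-15 had 1.44 (SE 0.49, edgeR adjusted p = 0.0420). Against day 3 controls unc-54 and unc-15 were at -0.46 (SE 0.36) and 0.23 (SE 0.50), both with an edgeR adjusted p of 0.836.

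**Figure D3:**
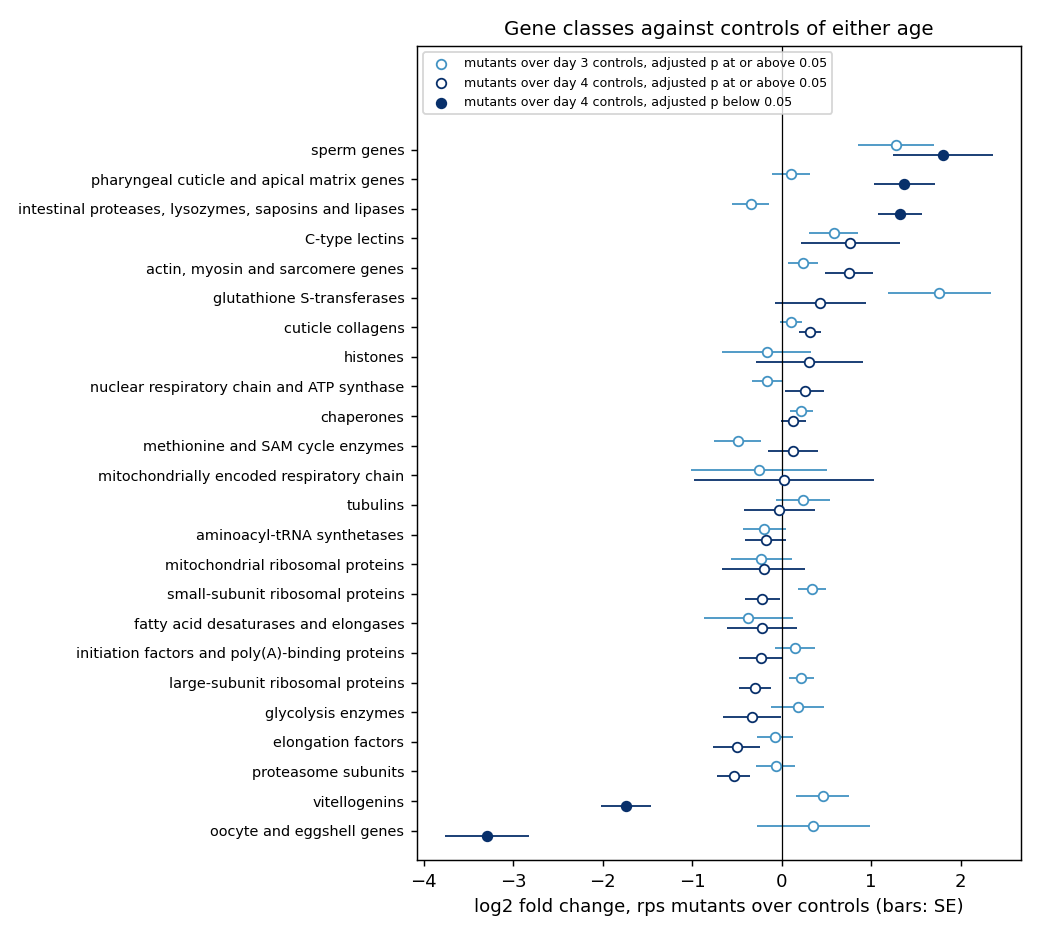
Log2 fold change of the summed counts of 24 gene classes in the 4 mutant libraries over day 3 controls (light blue) or day 4 controls (dark blue), with standard errors as bars. Filled points have an adjusted p below 0.05, and 5 classes are filled, all against day 4 controls. Oocyte and eggshell genes are at -3.30 and vitellogenins at -1.74 against day 4 controls, and at 0.35 and 0.46 against day 3 controls.

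Pooling genes into classes gave more counts per value. In the permutation test of class shares, with labels permuted within balancer over 225 arrangements, 0 of 24 classes (0%) passed the adjustment, and 2 had an unadjusted p below 0.05. The smallest p that this design allows is 0.00444, which a class that stands alone carries to an adjusted p of 0.107. With edgeR on summed class counts and library totals, 0 of 24 classes (0%) passed against the controls of both ages, with 1 below 0.05 before adjustment. With day 3 controls only, 0 passed (0%), with 4 below 0.05 before adjustment, and with day 4 controls only, 5 passed (20.8%).

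Adult reproductive classes were low in the mutants, near the day 3 controls. The 6 vitellogenin genes held 0.972% and 0.993% of the counts in rps-10(0)/+, against 0.466% and 0.878% in day 3 and 1.94% and 2.65% in day 4 tmC20 controls. They held 0.523% and 0.393% in rps-23(0)/+, against 0.109% and 0.492% in day 3 and 3.00% and 2.08% in day 4 tmC5 controls. Each mutant library lay below each day 4 control, and how many other classes were separate from day 4 controls was not counted. The log2 fold change against day 4 controls was -1.74 (SE 0.28, edgeR adjusted p = 0.00130) and against day 3 controls 0.46 (SE 0.30, edgeR adjusted p = 0.361). The 16 oocyte and eggshell genes had 12 counts in the 4 mutant libraries, against 11 in the 4 day 3 and 96 in the 4 day 4 controls. Among them, the eggshell gene cbd-1 had 0 counts in all 4 mutants and all 4 day 3 controls, and 1, 4, 8 and 4 in the day 4 controls. The class was at -3.30 against day 4 controls (SE 0.47, edgeR adjusted p = 9.5e-04) and at 0.35 against day 3 controls (SE 0.63, edgeR adjusted p = 0.732). The 4 germline markers all had a count in some library. They had 13 of the 10095 counts in the mutants and 58 of the 19707 counts in the controls of both ages together. Their part in these changes was not tested.

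Sperm genes took a larger share of the counts in the mutants than in the controls of their balancer, though the class missed the threshold against the controls of both ages. Sperm are made in the L4 stage of the hermaphrodite, and this class of 59 genes includes those of the major sperm proteins and of sperm development. The class held 0.347% and 0.511% of the counts in rps-10(0)/+ (10 and 18 counts), against 0.124% and 0.260% in day 3 and 0.0925% and 0.103% in day 4 tmC20 controls. It held 0.261% and 0.236% in rps-23(0)/+ (3 and 6 counts), against 0.0547% and 0.0936% in day 3 and 0% and 0.215% in day 4 tmC5 controls. Each mutant library lay above all 4 controls of its balancer, which held for this class and for no other of the 24 (4.17%). The exact permutation p was the smallest possible, 0.00444, and the adjusted p was 0.107. Pooled, the mutants had 37 counts and the controls 24, a ratio of shares of 3.01 with a counting interval of 1.75 to 5.26. In edgeR the log2 fold change was 1.47 (SE 0.44, adjusted p = 0.116) against all controls, 1.28 (SE 0.43, adjusted p = 0.0585) against day 3 and 1.80 (SE 0.56, adjusted p = 0.0455) against day 4 controls. Single genes of the class were too sparse to compare: ssq-1, the most counted, had 1 and 0 counts in rps-10(0)/+ and 0 and 1 in rps-23(0)/+, against 0 to 2 in the controls.

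Glutathione S-transferases, which conjugate glutathione to reactive compounds, had 20 counts in the mutants and 18 in the controls. Their share was 0.139% and 0.199% in rps-10(0)/+, against 0.0622% and 0.0651% in day 3 and 0% and 0.206% in day 4 tmC20 controls. In rps-23(0)/+ it was 0.261% and 0.236%, above the 0.0234% to 0.155% of the 4 tmC5 controls. The mean difference over both balancers was 0.113 percentage points (exact permutation p = 0.0267, adjusted p = 0.320). The edgeR log2 fold change was 1.76 against day 3 controls (SE 0.58, adjusted p = 0.0585) and 0.43 against day 4 controls (SE 0.51, adjusted p = 0.606). In RNA, the class held 0.0929% to 0.168% of the counts in the mutants and 0.0585% to 0.0759% in the controls. RNA counts were given for 21 of its 49 genes, so the RNA and Ribo-seq shares do not cover the same genes. Other classes also had RNA shares that did not overlap between mutants and controls.

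**Figure D4:**
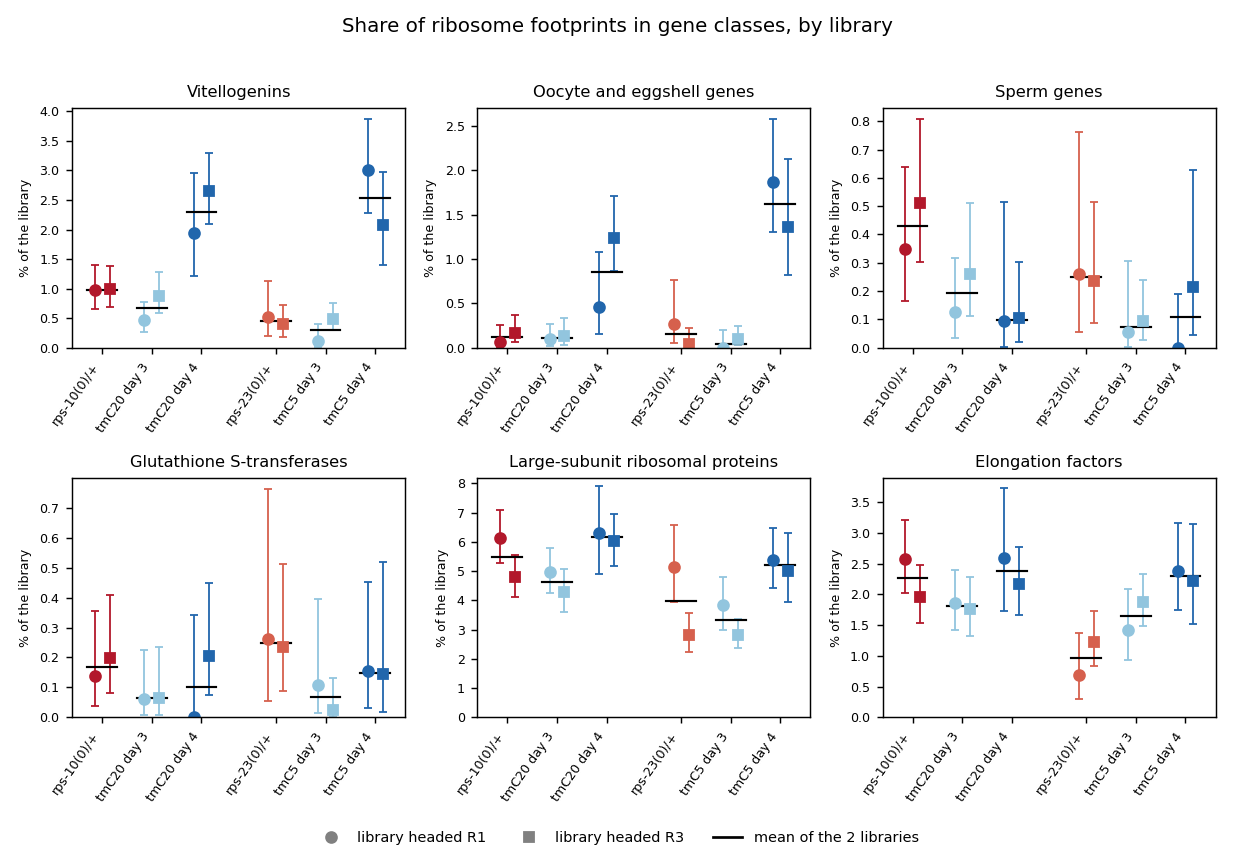
Share of each library's Ribo-seq counts (%, vertical axis) in 6 gene classes, with rps-10(0)/+ and rps-23(0)/+ each left of their controls of day 3 and day 4. Points are libraries (circles headed R1, squares R3), bars are exact 95% counting intervals and black lines the means of the 2 libraries. Vitellogenins are at 0.393% to 0.993% in the mutants and at 1.94% to 3.00% in day 4 controls, while for large-subunit ribosomal proteins the mutants, at 2.83% to 6.14%, overlap the 8 controls, at 2.83% to 6.29%.

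Cytosolic ribosomal proteins passed no test as classes. The 49 large-subunit genes held 6.14% and 4.80% of the counts in rps-10(0)/+, against 4.97% and 4.29% in day 3 and 6.29% and 6.01% in day 4 tmC20 controls. They held 5.14% and 2.83% in rps-23(0)/+, against 3.83% and 2.83% in day 3 and 5.38% and 5.02% in day 4 tmC5 controls. The ratio of pooled shares was 1.03 with a counting interval of 0.924 to 1.16, a narrower relative interval than any other of the 24 classes except the cuticle collagens (1.14, 1.02 to 1.27). The 32 small-subunit genes held 3.99% and 3.58% in rps-10(0)/+, against 2.64% to 5.55% in tmC20 controls, and 2.79% and 1.85% in rps-23(0)/+, against 1.71% to 2.90% in tmC5 controls. Their ratio of pooled shares was 1.15 (0.995 to 1.32). Both ratios leave out the balancer, and rps-10(0)/+ libraries held 6405 of the 10095 mutant counts. The permutation p values were 0.840 and 0.911 (adjusted, 0.951 for each). The directions differed with the age of the controls, at 0.22 (SE 0.14) and 0.34 (SE 0.15) against day 3 and at -0.30 (SE 0.18) and -0.22 (SE 0.20) against day 4 controls on the log2 scale, none past the threshold in edgeR. Single genes such as rpl-4 (11 and 11 counts in rps-10(0)/+, 5 and 6 in rps-23(0)/+, against 2 to 16 in the controls) and rpl-3 (7 and 13, 0 and 5, against 1 to 9) did not pass either. Of 39 large-subunit genes with a mean of at least 1 count, 23 had a higher share in the mutants and 16 a lower one, and of 32 small-subunit genes 16 had a higher and 16 a lower one, beside 265 and 282 of all 547 such genes.

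The TE of these classes had no change that passed. Counts were summed over the genes of a class that both assays list and fitted with the RNA. The large-subunit class was at -0.40 (SE 0.23, edgeR adjusted p = 0.702) and the small-subunit class at -0.21 (SE 0.23, edgeR adjusted p = 0.844). The RNA share of the large-subunit class was at least 10.2% in each mutant library, against 6.85% to 9.81% in the controls. That of the small-subunit class was at least 6.27% in each mutant library, against 4.72% to 6.66% in the controls. A separation in RNA was not particular to ribosomal proteins. Glycolysis enzymes, for example, held 0.259% to 0.279% in the mutants and 0.327% to 0.363% in the controls. Elongation factors were at -0.55 (SE 0.27) and sperm genes at 1.00 (SE 0.45), both with an edgeR adjusted p of 0.615. In RNA the library labelled tmC5 day 3 replicate 1 had 7.55% of its counts on vitellogenins and one labelled tmC5 day 4 had 0.349%, and the other tmC5 libraries had 0.197% at day 3 and 9.10% at day 4. These labels and profiles disagree, and their part in the TE values, for which both ages were pooled, was not tested.

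Of the genes of energy metabolism, the 10 mitochondrially encoded genes of the respiratory chain had 6 counts in the mutants and 13 in the controls. The ratio of pooled shares was 0.901 with a counting interval of 0.281 to 2.54, so a change of up to 2-fold in either direction was not detectable at this depth. Their most counted gene was ctc-1, with 0 and 3 counts in rps-10(0)/+ and 0 and 0 in rps-23(0)/+. The 41 nuclear genes of the respiratory chain and ATP synthase had 165 counts in the mutants and 319 in the controls, a ratio of 1.01 (0.832 to 1.22, exact permutation p = 0.898). Their most counted gene, atp-1, had 9 and 7 counts in rps-10(0)/+ and 5 and 6 in rps-23(0)/+, against 1 to 14 in the controls. Glycolysis enzymes had a ratio of 0.960 (0.693 to 1.32).

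Intestinal hydrolase genes and pharyngeal cuticle and apical matrix genes were higher in the mutants than in day 4 controls and passed no test against day 3 controls, while sarcomere genes and cuticle collagens passed against neither. The difference between the ages was not tested. Intestinal proteases, lysozymes, saposins and lipases held 0.833% and 0.937% in rps-10(0)/+, against 1.21% and 1.11% in day 3 and 0.278% and 0.378% in day 4 tmC20 controls. In rps-23(0)/+ they held 1.13% and 1.73%, against 2.35% and 1.62% in day 3 and 0.569% and 0.646% in day 4 tmC5 controls. The class was 1.32 higher than in day 4 controls on the log2 scale (SE 0.24, edgeR adjusted p = 0.00256) and was at -0.35 against day 3 controls (SE 0.20, edgeR adjusted p = 0.346). Among them, the aspartyl protease gene asp-3 had 2 and 6 counts in rps-10(0)/+ and 1 and 9 in rps-23(0)/+, against 9, 4, 9 and 5 in the day 3 and 2, 1, 1 and 1 in the day 4 controls. Pharyngeal cuticle and apical matrix genes were 1.37 higher than in day 4 controls (SE 0.34, edgeR adjusted p = 0.0149) and at 0.10 against day 3 controls (SE 0.21). Sarcomere genes were at 0.75 against day 4 (SE 0.27, edgeR adjusted p = 0.0678) and 0.24 against day 3 controls (SE 0.17). The 176 cuticle collagen genes, the class with the most counts (1470), were at 0.32 (SE 0.12, edgeR adjusted p = 0.0769) and 0.11 (SE 0.12).

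In the other classes of protein synthesis and turnover, the counting interval of the ratio of pooled shares held 1. Proteasome subunits were at 0.811 (0.637 to 1.03), aminoacyl-tRNA synthetases at 0.911 (0.695 to 1.19), initiation factors and poly(A)-binding proteins at 1.01 (0.791 to 1.28) and mitochondrial ribosomal proteins at 0.870 (0.574 to 1.30). Of the genes with a mean of at least 1 count, 2 of 12 proteasome genes, 2 of 10 synthetase genes and 1 of 9 initiation factor genes had a higher share in the mutants, beside 265 of all 547 such genes (48.4%). Chaperones, with 17 of 25 higher, were at 1.11 (0.978 to 1.27), with 374 counts in the mutants and 656 in the controls. The poly(A)-binding protein gene pab-1 had 2 and 3 counts in rps-10(0)/+ and 1 and 4 in rps-23(0)/+, against 1 to 7 in the controls. None of these classes passed the permutation test, where the lowest p was 0.0533 for the synthetases (adjusted p = 0.427). Of the 24 classes, 16 had a counting interval that held 1, and 5 had bounds more than 3-fold apart.

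Among the 547 genes with a mean of at least 1 count, 7 (1.28%) had a share above all controls within each balancer in all 4 mutants, and 0 (0%) had a share below. These 7, named after their values were seen, were let-2, lev-11, ifb-1, rpt-5, vha-3, calu-1 and F13D12.6. The type IV collagen gene let-2 had 6 and 8 counts in rps-10(0)/+ and 1 and 2 in rps-23(0)/+, against 0 to 6 in the controls. The tropomyosin gene lev-11 had 4 and 4, and 1 and 2, against 0 to 3. All 7 had between 6 and 17 counts over the 4 mutant libraries, and none had enough to enter the Ribo-seq test of single genes. The TE test included let-2, with a log2 TE change of 0.44 over both mutants (SE 0.64, edgeR adjusted p = 0.992).

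The response of the rps mutants was set against that of the large-subunit mutants rpl-5(0)/mc6 and rpl-33(0)/mc6, L4 larvae of 4 days whose change was taken against wild-type/mc6 controls of both ages (mc6 is the balancer as the labels write it). Of 49 genes tested over 20 libraries, 0 (0%) had a different change by edgeR, with 7 at an unadjusted p below 0.05, and 0 by DESeq2, with 4. The largest standard error was 1.62 and the median 0.96 on the log2 scale. The difference for eef-1A.1 was -0.19 (SE 0.41, edgeR adjusted p = 0.941). It averages the rps-10(0)/+ and rps-23(0)/+ changes, which for this gene lay 2.47 apart on the log2 scale. The rps-23(0)/+ change alone was not tested against the large-subunit mutants.

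Libraries headed R1 and R3 differed in a few genes, in mutants and controls alike. The junctional protein gene zoo-1 had 0, 1, 2, 1, 0 and 0 counts in the libraries headed R1 and 12, 13, 16, 16, 14 and 7 in those headed R3, each in the order rps-10(0)/+, rps-23(0)/+, tmC20 day 3, tmC20 day 4, tmC5 day 3 and tmC5 day 4. The log2 fold change of R3 over R1 was 3.37 (SE 0.58, edgeR adjusted p = 2.7e-06). Of 25 genes, 4 differed in this way, with H03E18.2 (log2 3.19) and the C-type lectin gene clec-105 (2.04) higher in R3 and ndk-1 (-1.19), a nucleoside diphosphate kinase, lower in R3. With 94 genes tested, 7 differed, among them C33C12.1 with 0 counts in R1 and 37 in R3. Each mutant group and each control group had 1 library of either heading, so this difference lies along the replicates and not along the genotypes. The genes zoo-1, H03E18.2 and, among the 94, C33C12.1 passed the abundance filters only through libraries headed R3. The numbers of genes that differed between headings therefore rest in part on the filters. Whether the heading R3 marks the replicate that the study's methods dropped as too shallow cannot be told from the files. With libraries headed R1 alone, and with those headed R3 alone, 0 of 25 genes were called in the mutants by edgeR, with 0 and 1 at an unadjusted p below 0.05.

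**Figure D5:**
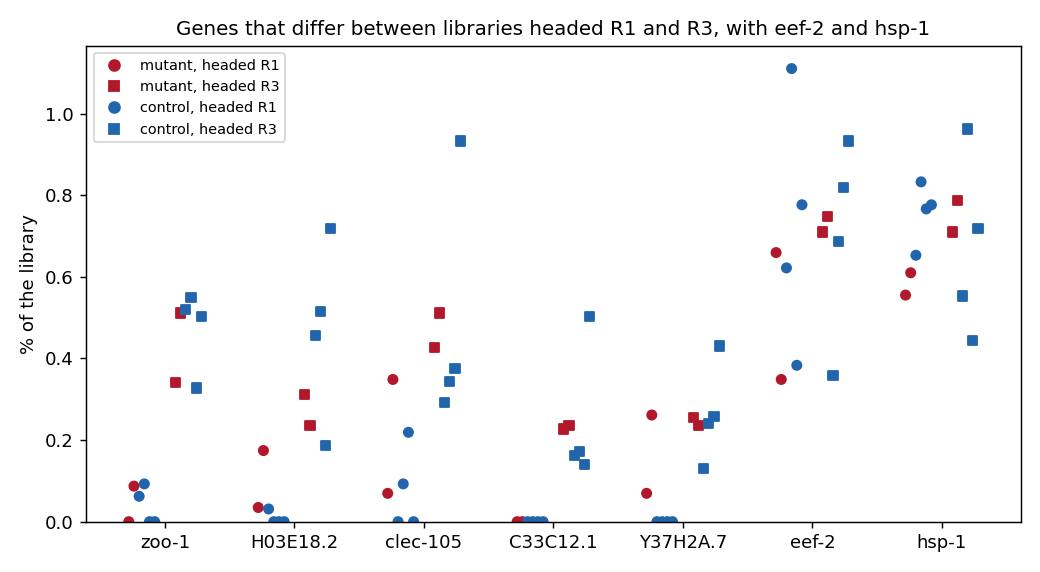
Share of each library's Ribo-seq counts (%) in 5 genes that differed between libraries headed R1 (circles) and R3 (squares), with eef-2 and hsp-1 beside them. Red points are mutant and blue points control libraries. In zoo-1 the libraries headed R1 had 0 to 2 counts and those headed R3 had 7 to 16, in mutants and controls.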

How the data were processed

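Ribo-seq and RNA-seq were made from parts of the same lysates per the study's methods. The TE fits had no term for this pairing and treated all libraries as independent. The authors digested lysates with RNase I, collapsed reads by molecular identifier, mapped them with RiboFlow to the WBcel235 transcriptome and deposited raw, unnormalized counts for each gene (footprints cut from a gel at 26 to 34 nucleotides). The RNA counts were deposited likewise, for 9532 genes, and the Ribo-seq table holds 20189 gene symbols. A further 6 Ribo-seq columns, each identical to a used one, and 8 RNA columns of other genotypes were not used. The RNA columns headed tmC20 day 3 R2 and tmC20 day 4 R2 were identical and were used once, as day 3. This left 11 RNA columns, with 1 for tmC20 day 4. Column headings number the replicates R1 and R3, the labels 1 and 2, and groups were taken from the headings' genotype, balancer and day.

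Counts were filtered with filterByExpr, normalized by TMM and tested with edgeR 4.0.16 (quasi-likelihood F test; limma 3.58.1, R 4.3.3), with Benjamini-Hochberg adjustment at 0.05. The filter can keep a gene that is abundant in a single group of libraries. DESeq2 1.42.0 was the alternative. An SE is the log2 fold change divided by the square root of F. Fits with fewer libraries kept the genes of the whole set. Class shares were permuted exactly and two-sided within balancer (scipy 1.17.1). Intervals are Clopper-Pearson or exact conditional, at 95%. Steps were tested on simulated data. Named genes were the mutated genes, the 20 of highest mean CPM, those called in a Ribo-seq contrast and the 2 of highest mean CPM in each class described. Members, classes and tests were chosen with earlier results of these data known. Comparisons by single control age of class sums, by heading and of TE by mutant or class were chosen after seeing the data. Depth per library ran from 1081 to 4272 counts.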

Additional observations from a re-analysis of the deposited data

Results flagged for a closer look

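The change of eef-1A.1 differed between the mutants, by 2.47 on the log2 scale (rps-10(0)/+ change minus rps-23(0)/+ change), by the test of the difference itself.

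Of 138 groups of 4 libraries checked (24 classes, the mutated genes and the 20 most counted genes, in mutants, tmC20 controls and tmC5 controls), 10 held a library whose gap to the others was large beside the group's range. Chance gives about 1 in 20. Among the mutants, rps-23(0)/+ headed R1 stood high for tubulins (1.31% of its counts, against 0.486% to 0.551% in the others) and for rack-1, a ribosome-bound scaffold protein gene (0.610%, against 0.227% to 0.278%). Among tmC20 controls, the day 4 library headed R3 stood high for chaperones (3.68%, against 2.77% to 2.87%) and hsp-90 (0.790%, against 0.342% to 0.390%). The day 4 library headed R1 stood high for rps-23 (0.648%, against 0.155% to 0.195%) and ndk-1 (0.555%, against 0.0976% to 0.172%), and the day 3 library headed R1 stood low for mitochondrially encoded genes (0.0311%, against 0.0925% to 0.103%). Among tmC5 controls, the day 4 library headed R3 stood high for glycolysis enzymes (1.00%, against 0.445% to 0.493%), the day 4 library headed R1 for hsp-90 (0.673%, against 0.430% to 0.468%) and the day 3 library headed R3 for ahcy-1 (0.492%, against 0.215% to 0.259%).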

How the results depend on the processing

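Counts of called genes moved most with the age of the controls. Over both mutants 0 genes were called in the fit reported, 9 against day 4 controls alone and 1 (pygl-1) with all 20 libraries in the fit. In a fit with each control age as its own group, chosen after seeing the data, the day 3 contrast gave 0 over both mutants, 0 in rps-10(0)/+ and 1 in rps-23(0)/+, and the day 4 contrast gave 9, 0 and 10 in that order. In rps-10(0)/+ the count was 0 and became 1 against day 4 controls alone. In rps-23(0)/+ it was 1 and became 8 against day 4 controls alone, 2 with all 20 libraries (pygl-1 added) and 0 with no filter on low counts. For the difference between the mutants the count was 1 and became 0 with no filter. For the difference from the large-subunit mutants it was 0 and became 1 (ahcy-1) with library totals. Of the class tests 0 passed, and 5 did with edgeR on summed counts against day 4 controls alone, also chosen after seeing the data.

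Leaving out each library gave 0 to 0 called genes over both mutants and in rps-10(0)/+, 1 to 2 in rps-23(0)/+, 0 to 1 for the difference between the mutants, 0 to 0 for the difference from the large-subunit mutants, 0 to 1 for TE and 0 to 0 classes, where the smallest p these permutations allow lets no lone class pass. Without tmC5 day 3 headed R1 or R3, pygl-1 was added in rps-23(0)/+ (edgeR adjusted p of 0.0287 and 0.0456), and without rps-23(0)/+ headed R1, rla-0 passed for TE (edgeR adjusted p = 0.0355). The eef-1A.1 call in rps-23(0)/+ held in 23 of 24 alternatives, with log2 fold changes of -3.25 to -1.59 and edgeR or DESeq2 adjusted p values of 1.8e-04 to 0.0489, apart from 0.960 with no filter. Some of these left out only an rps-10(0)/+ or tmC20 library, which is not part of this contrast. With rps-23(0)/+ and tmC5 libraries alone in the fit, the change was -2.22 (SE 0.69, edgeR adjusted p = 0.0427). The eef-1A.1 difference between the mutants passed in 20 of 22, missing with no filter and without rps-10(0)/+ headed R1.

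The labels give the groups the same replicate numbers, but nothing says that a number marks a shared culture or day. Deviations of libraries headed R3 correlated between groups by 0.0127 to 0.523 (15 pairs, 94 genes, 13 pairs over 0.1). With the heading as a replicate block, edgeR called 0 genes over both mutants and in rps-10(0)/+, 1 in rps-23(0)/+ (eef-1A.1, -2.01, adjusted p = 0.0105), 1 for the difference between the mutants, 0 for that from the large-subunit mutants and 0 for TE, so the block changed the number of none of these. It called 0 classes, but with a smallest possible p of 0.0123 no lone class could pass.

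Depth limited the test to 25 genes, with a median SE of 0.59 for both mutants, 0.82 for rps-10(0)/+ and 0.89 for rps-23(0)/+ on the log2 scale. At these errors pygl-1, at -1.82 over both mutants, did not pass. Of the 24 classes, 5 held fewer than 100 counts.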
